A study of Mus musculus with 6 samples.

Results

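The early growth response genes Egr1, Egr2, Egr3 and Egr4 and the co-repressor genes Nab1 and Nab2 were followed in cultured mouse biliary epithelium, the lining of the bile ducts. These 6 genes were taken by symbol from a table of 32061 genes, and all 6 passed the filter on low counts. They were picked with the contrast between the groups already known, so their values in that contrast are a description and carry no test.

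RNA was sequenced from 6 samples, 3 depleted of primary cilia, labelled as given 4OHT, and 3 competent for primary cilia, labelled as without it. All 6 came from bile ducts picked by hand out of enzyme-digested mouse liver, kept as organoids over 4 to 5 passages before they were plated flat on collagen. 4OHT usually stands for 4-hydroxytamoxifen, a drug that activates Cre fused to a mutant oestrogen receptor. The deposited count columns are named KO and WT, which were read as depleted and competent. Beyond those names, genotype, Cre driver, sex and age of the mice, and the time between 4OHT and harvest are not given in the sources used here. Drug treatment and the loss of cilia came together in every sample and cannot be told apart. The labels do not say whether replicates were separate cultures or mice. The SDs therefore describe only how far these samples spread, and the p-values set the difference between groups against such spread. That spread may be technical.

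EGR proteins are transcription factors that bind GC-rich DNA through zinc fingers. Cells make them within minutes of a stimulus, mainly when ERK kinase signalling acts on serum response factor (SRF) and its ternary complex partners at the EGR promoters. NAB proteins have no DNA-binding domain of their own. They bind EGR1, EGR2 and EGR3 and repress transcription there in part by recruiting the CHD4-containing NuRD complex, and Nab2 is itself known as a gene that EGR factors switch on, which closes a negative feedback loop. In liver, Egr1 is known as an early gene of injury and regeneration.

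Promoter sequences are shown for the members that had an entry, which Egr1 and Egr3 did not. Whether these sequences bear on the differences between the groups was not tested. RefSeq promoter entries (GRCm38.p6) matched Egr2, Egr4, Nab1 and Nab2, and each line below gives the 250 bases before an annotated start, written 5′ to 3′ on the gene's strand. Capitals mark matches on either strand to the CArG box, which SRF binds, to CCGGAA, a core bound by ETS factors such as the ternary complex factors, to TGACG, the core of the cAMP response element, and to GCGTGGGCG or GCGGGGGCG, which EGR proteins bind.
Egr2, start of the principal transcript, chr10:67537619-67537868, plus strand: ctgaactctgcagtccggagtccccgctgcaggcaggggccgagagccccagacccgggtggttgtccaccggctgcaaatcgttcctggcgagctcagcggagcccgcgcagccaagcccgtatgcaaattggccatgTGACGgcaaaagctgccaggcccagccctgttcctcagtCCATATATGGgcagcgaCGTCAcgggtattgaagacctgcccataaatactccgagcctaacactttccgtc
Egr2, a start further upstream, chr10:67537316-67537565, plus strand: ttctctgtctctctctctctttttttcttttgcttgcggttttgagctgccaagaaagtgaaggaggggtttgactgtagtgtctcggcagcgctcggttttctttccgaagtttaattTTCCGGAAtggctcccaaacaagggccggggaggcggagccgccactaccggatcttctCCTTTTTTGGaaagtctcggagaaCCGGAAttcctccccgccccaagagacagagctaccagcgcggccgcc
Egr4, chr6:85513590-85513839, minus strand: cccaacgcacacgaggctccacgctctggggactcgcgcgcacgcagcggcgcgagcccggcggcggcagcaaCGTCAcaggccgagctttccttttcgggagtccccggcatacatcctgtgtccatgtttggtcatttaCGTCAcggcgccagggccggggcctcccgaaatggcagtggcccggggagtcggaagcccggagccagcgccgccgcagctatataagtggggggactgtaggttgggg
Nab1, chr1:52500449-52500698, minus strand: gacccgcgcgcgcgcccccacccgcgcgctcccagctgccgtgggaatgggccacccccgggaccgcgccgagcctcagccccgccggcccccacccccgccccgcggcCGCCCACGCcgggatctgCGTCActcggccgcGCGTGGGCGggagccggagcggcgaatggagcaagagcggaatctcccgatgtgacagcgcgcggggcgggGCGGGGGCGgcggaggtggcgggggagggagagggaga
Nab2, chr10:127666704-127666953, minus strand: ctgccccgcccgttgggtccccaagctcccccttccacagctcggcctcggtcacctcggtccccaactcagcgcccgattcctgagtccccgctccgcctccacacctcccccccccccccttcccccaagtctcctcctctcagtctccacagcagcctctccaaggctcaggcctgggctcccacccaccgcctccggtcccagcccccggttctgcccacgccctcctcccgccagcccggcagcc

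Egr2 had 5 RefSeq entries. The most upstream, chr10:67535249-67535498, held none of these motifs, and the other two not shown overlap the window of the principal transcript and hold its CArG box. Both Egr2 sequences shown held a CArG box at position -72, counting -1 as the base before the start, and these were different boxes. CArG boxes occurred in 1.47% of all 32851 promoter windows of this length. The upstream Egr2 window also held 3 CCGGAA matches, at -131, -129 and -48, of which the first pair overlap, and CCGGAA occurred in 12% of windows. The window of the principal Egr2 transcript held TGACG at -111 and -55, and Egr4 held it at -177 and -109. TGACG is short and occurred in 17.8% of windows. Nab1 held 2 matches to GCGTGGGCG, at -141 and -109, and 1 to GCGGGGGCG, at -38, motifs found in 0.536% and 2.57% of windows. It also held 1 TGACG match, at -123. The Nab2 window held none of these motifs. Its start, at 127666703, lies inside the GENCODE span of Nab2, whose 5′ end is at 127668568. The bases before that upstream end were not searched, so nothing is read about EGR sites there. A match is a description of the sequence and does not show that a factor binds there.

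The deposited values were raw counts per gene. Levels are given as CPM, counts scaled to a fixed library total with TMM, a factor that corrects for differences in RNA composition, and levels of different genes are compared per kilobase of exon. Depleted libraries held 26293486 to 36998935 counts and competent libraries 32199606 to 36093068. In them 3 counts corresponded to 0.085 to 0.119 CPM in depleted and 0.0797 to 0.0881 CPM in competent samples, floors that cover counting error only. Wdr35, which encodes an intraflagellar transport protein, was taken as the deleted gene from knowledge of the study. It had 739, 914 and 925 counts in depleted and 1211, 1148 and 1200 in competent samples. Scaled, these averaged 28.0 CPM in depleted and 33.3 CPM in competent cells, 1.19-fold lower in depleted cells (edgeR adjusted p = 0.00245). A whole-gene count cannot show an exon deletion. Of 10 biliary epithelial markers 2 rose and 6 fell, with summed levels of 13311 to 14358 CPM in depleted and 15532 to 16378 CPM in competent samples. The keratin gene Krt7 stood at 2471 and 3150.4 CPM on average, in depleted and competent cells, but Krt19, a defining marker, at only 8.33 and 12.5 CPM. The leukocyte marker Ptprc averaged 0.185 and 0.149 CPM in depleted and competent cells and the Schwann cell marker Sox10 had 1 count in all. Of 6 leukocyte markers, only Cd68 passed the filter, and it rose. Their sum was 5.32 to 6.22 CPM in depleted and 3.35 to 3.93 CPM in competent samples. Of 5 nerve and Schwann cell markers 1 rose and 1 fell, with sums of 8.61 to 9.27 CPM in depleted and 7.84 to 9.35 CPM in competent samples. The 5 endothelial markers summed to 0.198 to 0.499 CPM in depleted and 0 to 0.159 CPM in competent samples. Fibroblast markers summed to 2.95 to 3.88 CPM in depleted and 2.09 to 3.11 CPM in competent samples, with Col3a1 at 0 throughout, Col1a1 higher and Acta2 lower in depleted cells. Hepatocyte markers summed to 240.2 to 248 CPM in depleted and 214 to 237 CPM in competent samples, most of it from Hnf4a, and Cyp2e1 had 1 count in all. The part of these markers in the results below was not tested. In bulk RNA, a change in the number of expressing cells and a change in RNA per cell cannot be told apart.

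By edgeR, Egr1, Egr2 and Egr3 were 99.6-fold to 200.2-fold higher in depleted cells. Egr4 was about 206-fold higher by the ratio of summed counts and 195-fold by edgeR. Nab1 was 1.36-fold lower and Nab2 differed by 1.04-fold. The groups did not overlap for the 4 EGR genes, all higher in depleted samples, nor for Nab1, lower in depleted samples, and they overlapped for Nab2. Among all 13839 genes tested the groups did not overlap for 72.5%, with 36.4% having all depleted samples higher and 36.1% all lower. Since the members were chosen on this contrast nothing is read from their count.

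Egr1 encodes the founding and most widely studied EGR factor. It lies on GRCm38 chromosome 18 from 34859823 to 34864984, plus strand (ENSMUSG00000038418). Its raw counts were 210377, 268306 and 281846 in depleted samples, against 1488, 1490 and 1411 in competent samples. Scaled, these were 8334, 8364 and 7981 CPM in depleted and 43.7, 42.2 and 37.5 CPM in competent samples. Every depleted sample was far above every competent sample, and the SD was 2.59% of the mean in depleted and 7.88% in competent cells. Expressed as a log2 change this was 7.65 (SE 0.075). Egr1 alone took 0.800%, 0.797% and 0.762% of all counts in depleted samples, against 0.00462%, 0.00436% and 0.00391% in competent samples. Per kilobase it ranked 13 among the 13839 genes tested in depleted cells and 5149 in competent cells.

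Egr2, also called Krox20, is best known for directing myelination in Schwann cells and patterning the hindbrain (ENSMUSG00000037868, chromosome 10, 67535475 to 67542188, plus strand). It had 5257, 6139 and 5956 counts in depleted samples and 50, 47 and 47 in competent samples. The scaled levels were 208, 191 and 169 CPM in depleted cells and 1.47, 1.33 and 1.25 CPM in competent cells. The log2 change was 7.13 (SE 0.104). Even the lowest depleted sample was thus far above the highest competent one, and the relative spread was alike in both groups, with an SD of 10.5% of the mean in depleted and 8.24% in competent cells.

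Egr3 encodes a factor known from muscle spindle and lymphocyte development (ENSMUSG00000033730, chromosome 14, 70077203 to 70082614, plus strand). Its counts were 2392, 2722 and 2210 in depleted samples and 41, 33 and 12 in competent samples. In CPM this was 94.8, 84.9 and 62.6 for depleted and 1.20, 0.934 and 0.319 for competent cells. Competent replicate 3 was the lowest of all 6 samples and depleted replicate 3 the lowest of its own group. The log2 change was 6.64 (SE 0.230), and it was 6.23 without competent replicate 3 and 7.02 without competent replicate 1. Egr3 had the largest relative spread among competent samples of any member, with an SD of 55.4% of the mean.

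Egr4, the member least studied outside the nervous system and the testis, was also the lowest (ENSMUSG00000071341, chromosome 6, 85511121 to 85513589, minus strand). It had 322, 410 and 336 counts in depleted samples, against 1, 2 and 3 counts in competent samples. The competent counts were all at or below the floor of 3 counts, so the ratio of summed counts, 1068 over 6, was used. Scaled for library size it was 206, with a 95% exact counting interval of 94.2 to 562. The depleted levels were 12.8, 12.8 and 9.51 CPM, well above the floor.

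Nab1 encodes the more constitutive of the NAB co-repressors (ENSMUSG00000002881, chromosome 1, 52457294 to 52500679, minus strand). Its counts were 3330, 4335 and 4638 in depleted and 6046, 6524 and 6792 in competent samples. These corresponded to 132, 135 and 131 CPM in depleted and 178, 185 and 180.4 CPM in competent samples. All 3 depleted samples were lower than all 3 competent samples, and the SD within a group was at most 1.97% of the mean. The log2 change was -0.45 (SE 0.040), which placed 2678 of 13839 tested genes at or below it.

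Nab2 encodes the co-repressor that is known to be induced with EGR factors by growth factors (ENSMUSG00000025402, chromosome 10, 127660918 to 127668568, minus strand). It had 1318, 1583 and 2079 counts in depleted and 1712, 1911 and 1861 in competent samples. The levels were 52.2, 49.3 and 58.9 CPM in depleted and 50.3, 54.1 and 49.4 CPM in competent samples. Depleted replicate 3 was the highest sample and depleted replicate 2 the lowest, so the groups overlapped. The log2 change was 0.06 (SE 0.064), and without depleted replicate 3 it was -0.01. In GENCODE M21, 35.7% of the Nab2 exon length lies opposite the noncoding gene Gm16229, 5.13% opposite Nemp1 and 1.36% opposite Stat6. How strand was handled in the counting is not given in the sources used here, so reads from the opposite strand cannot be told apart from those of Nab2. Nemp1 averaged 12.8 ± 0.259 CPM in depleted and 12.1 ± 0.501 CPM in competent cells (SD, n = 3 each; edgeR adjusted p = 0.32), and Stat6, a cytokine-activated transcription factor gene, rose 1.27-fold (edgeR adjusted p = 1.46e-05). Exons of the other 5 members overlapped no other annotated gene.

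**Figure D1:**
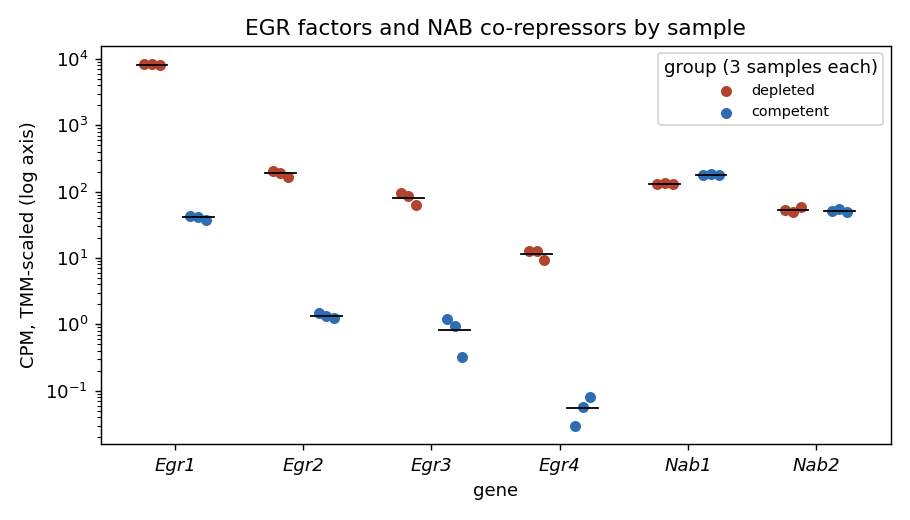
TMM-scaled CPM of the 6 genes on a log axis, with a point per sample and a line at the mean of each group of 3, depleted samples in red at the left of each pair and competent samples in blue. The EGR genes stand far higher in depleted samples, for example 8226 against 41.1 CPM for Egr1, whereas the groups lie close together for Nab1 and overlap for Nab2.

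The transcript levels of factors and co-repressors were compared per kilobase of exon, and protein was not measured. In depleted cells the order was Egr1 at 1835 ± 47.5, Egr2 at 55.7 ± 5.85, Nab1 at 32.4 ± 0.499, Egr3 at 18.3 ± 3.74, Nab2 at 18.2 ± 1.66 and Egr4 at 5.44 ± 0.875 CPM per kb (SD, n = 3). Egr3 and Nab2 overlapped in that order, and the other neighbours did not. In competent cells the order was Nab1 at 44.1 ± 0.870, Nab2 at 17.4 ± 0.843, Egr1 at 9.17 ± 0.723, Egr2 at 0.397 ± 0.0327, Egr3 at 0.186 ± 0.103 and Egr4 at 0.0257 ± 0.0117 CPM per kb (SD, n = 3). No neighbours overlapped there, although Egr4 rested on 1 to 3 counts a sample.

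Both NAB genes therefore stood above every EGR gene in competent cells, and Egr1 stood above both in depleted cells. The summed level of the 4 EGR genes per kilobase was 39.0, 39.1 and 35.5 times that of the 2 NAB genes in depleted samples, against 0.173, 0.158 and 0.145 times in competent samples. Nab2 stood at 0.552, 0.509 and 0.625 times the Nab1 level in depleted samples and at 0.395, 0.408 and 0.382 times in competent samples. The groups did not overlap in either ratio.

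Egr1 dominated the family in both groups. It made up 95.4%, 95.8% and 96.3% of the summed EGR level per kilobase in depleted samples and 93.1%, 93.7% and 94.6% in competent samples. Egr2 made up 3.15%, 2.89% and 2.69% in depleted and 4.13%, 3.90% and 4.16% in competent samples. Egr3 made up 0.769% to 1.10% in depleted and 0.819% to 2.61% in competent samples, and the groups overlapped. The makeup of the family thus shifted by a few percent while its total stood at 1848 to 1947 CPM per kb in depleted and 8.83 to 10.5 CPM per kb in competent samples.

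**Figure D2:**
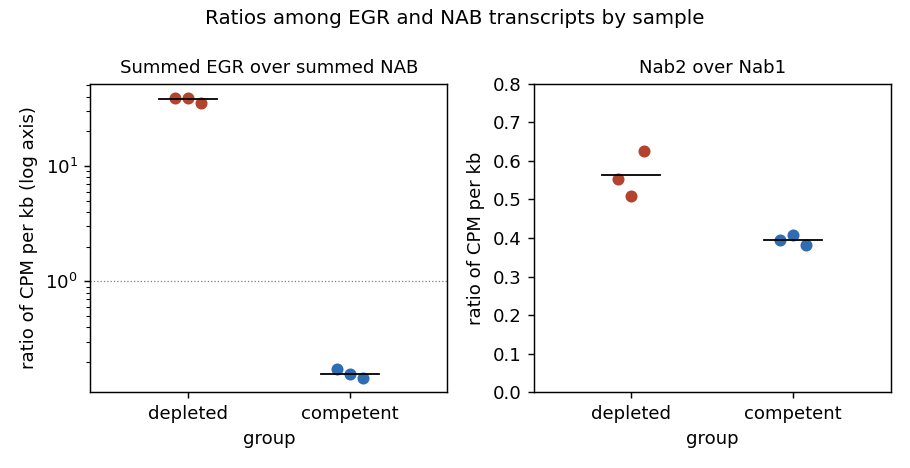
Ratios of levels in CPM per kb, with a point per sample, a line at the mean of each group of 3, and depleted samples at the left. The left panel, on a log axis with a dotted line at 1, shows the summed EGR level over the summed NAB level, 35.5 to 39.1 in depleted and 0.145 to 0.173 in competent samples, and the right panel, on a linear axis from 0, shows Nab2 over Nab1.

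Genes with the most similar profile over the 6 samples were found among 10453 genes by the distance between log2 CPM values centred on each gene's mean. For Egr1 the nearest were Egr2 (distance 0.68), the AP-1 gene Fosb (0.70), Egr3 (1.68), Zfp36, which encodes an mRNA-destabilising protein (2.03), and the stress-induced factor gene Atf3 (2.63). Egr2 had the same neighbours in the same order, with Egr1 in its own place. For Egr3 the order was Egr2, Zfp36, Egr1, Fosb and Atf3. Only 6 of the 13839 genes tested had a change at or above that of Egr3, and the members were chosen on this contrast. Few other genes could therefore lie near them, and nothing is read from their likeness to each other. Egr4 was below the level required of the genes compared (a mean log2 CPM of at least 2) and was left out. Egr2 and Egr3 met this level only through the depleted samples, with competent means of 1.35 and 0.819 CPM. For Nab1 the nearest were Pitpna, Dnajc4, Mical2, Zbtb22 and Bphl, at distances of 0.03 to 0.04, and for Nab2 they were Ctsc, Pmvk, Asb6, Nol10 and Hkdc1, at 0.08 to 0.10. With 3 samples a group this likeness mostly reflects the difference between the groups. Other families of immediate-early genes gave log2 changes of 0.85 (Jund) to 7.99 (Fosb) for 7 AP-1 genes and 1.95 (Nr4a2) to 4.46 (Nr4a1) for 3 NR4A receptors, against 6.64 to 7.65 for the EGR genes, and no difference between families was tested, since all share the same samples. Jund and Fosl1 of the AP-1 list overlap opposite-strand genes over more than 50% of their exons.

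The other genes of the pathway were then counted in lists. A gene is said to have risen or fallen in depleted cells where edgeR's quasi-likelihood test gave an adjusted p below 0.05 over all genes. Of 13839 genes tested, 69.2% were called, 34.9% higher and 34.3% lower, with a median log2 change of -0.0057. Scaled by library size alone, 3836 genes were higher and 5980 lower, against 4832 and 4744 with TMM. The median of all genes was then -0.13. Each count below is set against these shares, and nothing is called particular to a list. All lists were chosen with earlier results of these data known, so their counts are a description.

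Of 15 ERK cascade genes tested, 4 rose and 6 fell, while 5 missed the threshold. Their median log2 change was -0.06. Hras, which encodes a GTPase that passes signals from receptors to RAF kinases, stood at 55.7 ± 2.32 CPM in depleted and 81.2 ± 1.14 CPM in competent cells (SD, n = 3 each; log2 change -0.54, SE 0.046, edgeR adjusted p = 1.82e-07). Nras, for a related GTPase, fell 1.31-fold. Ksr1, a scaffold for the cascade, rose 1.67-fold, to 34.0 ± 1.80 CPM in depleted against 20.3 ± 2.08 CPM in competent cells. Braf rose 1.35-fold, with a log2 change of 0.43 that was 0.14 once the trend with transcript length was removed. That step gave log2 changes of 0.55 for Ksr1 (0.74 before), -0.57 for Hras (-0.54) and -0.53 for Nras (-0.39). Mapk3, which encodes an ERK kinase and was named after its values were seen, fell 1.29-fold (log2 change -0.37, edgeR adjusted p = 2.03e-06). With library size alone 11 of the 15 fell.

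Of 14 genes for SRF, CREB and their cofactors, 10 rose and 3 fell, while Elk1 missed the threshold. The list's median log2 change was 0.37. The acetyltransferase co-activator genes Crebbp and Ep300 rose 1.78-fold and 1.63-fold. Mrtfa, which encodes an actin-regulated SRF co-activator, rose 1.57-fold, and Crtc1, a CREB co-activator gene, rose 1.49-fold. With the length trend removed, the log2 changes were 0.53 for Crebbp (0.83 before), 0.42 for Ep300 (0.71), 0.51 for Mrtfa (0.65) and 0.38 for Crtc1 (0.58). Elk3, a ternary complex factor gene whose product often represses, fell 1.51-fold. Srf itself, named after its values were seen, had 3754, 4789 and 4830 counts in depleted and 5352, 6303 and 5891 in competent samples, and fell 1.13-fold (log2 change -0.18, SE 0.056, edgeR adjusted p = 0.0123).

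Of 13 genes of the NuRD complex, the histone deacetylase and remodelling complex that NAB proteins recruit, 4 rose and 7 fell, while Mta2 and Mta3 missed the threshold. The median log2 change was -0.17. Gatad2b, a scaffold subunit gene, rose 1.98-fold, to 120.2 ± 3.78 CPM in depleted against 60.8 ± 2.54 CPM in competent cells (edgeR adjusted p = 6.66e-10). The falls included Mbd3 (1.51-fold), the deacetylase genes Hdac2 (1.49-fold) and Hdac1 (1.40-fold), and Rbbp7 (1.30-fold), whose product binds histones. Chd4, the remodeller that NAB2 binds, named after its values were seen, rose 1.19-fold and its relative Chd3 fell 1.25-fold. Removing the length trend gave log2 changes of 0.73 for Gatad2b (0.98 before) and -0.37 for Mbd3 (-0.59). It gave -0.65 for Hdac2 (-0.58), -0.37 for Hdac1 (-0.48) and -0.32 for Rbbp7 (-0.38). Only 2 of the 13 rose when the trend with transcript length was removed or library size alone was used.

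Of 10 genes for EGR protein partners and for factors that bind similar GC-rich sites, 6 rose while 4 missed the threshold, at a median log2 change of 0.19. By edgeR 0 fell, with 0 also at an unadjusted p below 0.05 and 0 by DESeq2, but 1 fell with library size alone and 2 with the length trend removed. Nfatc1, a calcium-regulated partner of EGR factors at cytokine genes, rose 1.56-fold. Sp1 and Sp3, which occupy GC boxes, rose 1.54-fold and 1.41-fold, and the log2 change of Sp1 was 0.37 with the length trend removed, against 0.62. Hcfc1, an EGR2-associated co-factor gene, rose 1.21-fold, but its log2 change of 0.27 was 0.14 with library size alone and 0.00, a lost call, with the length trend removed, and Ddx20, whose helicase binds EGR factors, rose 1.16-fold, a call lost with library size alone and without competent replicate 2 (log2 changes 0.09 and 0.16).

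Genes known as EGR1 targets in various cell types were mostly higher. Of 24 tested, 14 rose and 5 fell, while 5 missed the threshold. The median log2 change was 0.42. The rise exceeded 2-fold for 9 of the 24, against 7.38% of all genes tested, and 0 of the 24 fell that far. As the list was chosen with earlier results of these data known, nothing about EGR1 activity is read from these shares. Gdf15, a stress cytokine gene, had 18352, 25376 and 26514 counts in depleted and 1212, 1308 and 1311 in competent samples. This was 756 ± 32.4 CPM in depleted and 35.8 ± 1.11 CPM in competent cells (SD, n = 3 each; log2 change 4.40, SE 0.053, edgeR adjusted p = 2.27e-15). The growth arrest genes Gadd45b and Gadd45a rose 4.91-fold and 3.97-fold, and Vegfa, which encodes an angiogenic factor, rose 4.23-fold. Tnf had 53 counts over the depleted and 7 over the competent samples, a scaled ratio of 8.75 with a 95% exact counting interval of 3.96 to 22.8.

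Other EGR1 targets, named after their values were seen, included classical ones in the vessel wall and in wound repair. Pdgfb, which encodes a growth factor subunit, had 18526, 23036 and 24576 counts in depleted and 10618, 10015 and 10184 in competent samples and rose 2.48-fold. The prostaglandin synthase gene Ptgs2 rose 2.97-fold, the matrix gene Thbs1 2.11-fold and the coagulation starter F3 1.95-fold. Tgfb1, a fibrogenic cytokine gene often described as an EGR1 target, went the other way, at 9.95 ± 0.532 CPM in depleted and 18.9 ± 1.13 CPM in competent cells (SD, n = 3 each; log2 change -0.92, edgeR adjusted p = 1.57e-07). Mmp14, Ccnd1, Trp53 and Cd44 were the other falls, with log2 changes of -0.40 to -0.15. Pdgfa did not pass (log2 change -0.04, edgeR adjusted p = 0.501). Ccnd1 and Pdgfa overlap opposite-strand genes over 23.4% and 26.1% of their exons.

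Targets of EGR2 and EGR3 known from nerve and lymphoid cells also changed, though several defining ones had almost no reads. Of 20 tested, 15 rose and 2 fell, while 3 missed the threshold. The median log2 change was 0.66. The rise exceeded 2-fold for 8 of the 20, against 7.38% of all genes tested. The fall exceeded 2-fold for Gjb1 alone, against 2.49% of all genes tested. This list too was chosen with earlier results known, and nothing is read from these shares. Arc, an activity-regulated gene of neurons, had 2969, 3682 and 3254 counts in depleted and 122, 131 and 117 in competent samples (log2 change 4.96, SE 0.108, edgeR adjusted p = 3.33e-13). Id3, a helix-loop-helix inhibitor gene that EGR factors switch on in thymocytes, rose 7.66-fold, to 199.6 ± 20.8 CPM in depleted against 26.1 ± 1.28 CPM in competent cells. The cytokine signalling inhibitor genes Socs1 and Socs3 rose 5.68-fold and 3.86-fold. Nrn1, a neurite growth gene that overlaps Fars2 on the opposite strand over 22.3% of its exons, fell 1.49-fold. Lag3, an inhibitory receptor gene of T cells, rose 3.64-fold but had only 20, 11 and 20 counts in depleted and 8, 4 and 4 in competent samples.

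The myelin genes that EGR2 controls in Schwann cells, named after their values were seen, did not all change in the same direction. Mag, for an adhesion protein of myelin, had 3 counts over the depleted and 3 over the competent samples. Gjb1, which encodes a gap junction protein of both Schwann cells and liver, fell 2.19-fold, to 24.1 ± 1.62 CPM in depleted against 52.9 ± 8.85 CPM in competent cells (SD, n = 3 each; edgeR adjusted p = 2.51e-07). Mbp and Prx rose 1.48-fold and 1.35-fold, and another myelin gene of the list, not reported by name, also rose. Fasl, an EGR3 target in lymphocytes, had 0 counts in every sample.

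**Figure D3:**
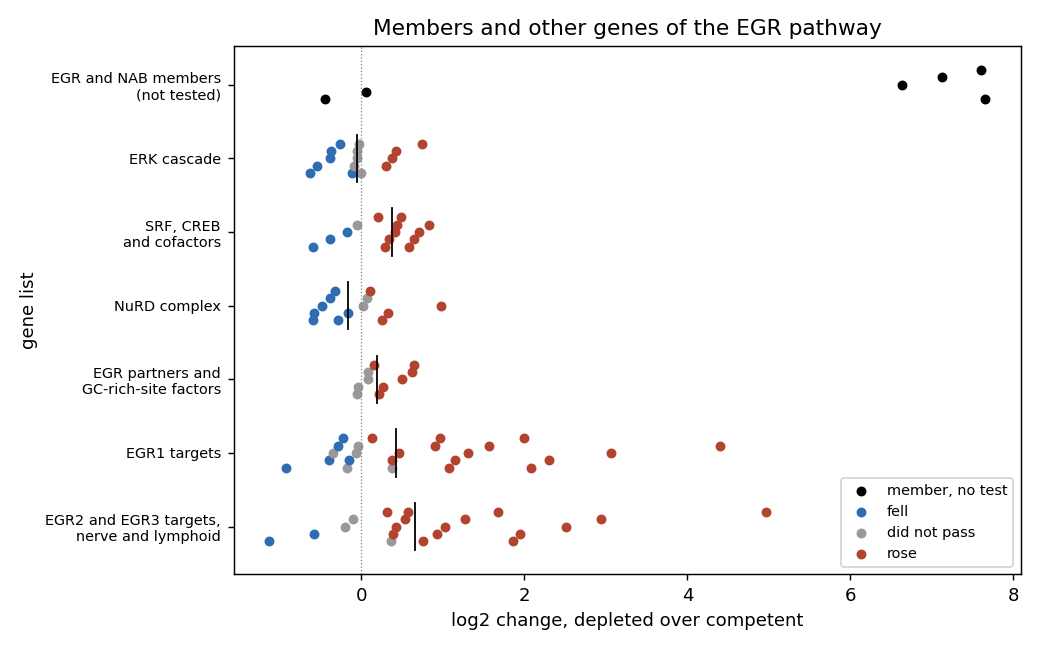
Log2 change, depleted over competent, of each gene tested in 6 lists of the EGR pathway and of the 6 members at the top. Red points rose, blue fell, grey did not pass, black members were not tested, vertical lines mark each list's median, and height within a row only separates points. The 4 EGR genes lie at 6.64 to 7.65, beyond every gene of the other lists, the farthest of which are Arc at 4.96 and Gdf15 at 4.40.

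Changing the scaling moved the log2 changes of all 6 members by like amounts, and only that of Nab2 changed sign. Nab1 was lower under each setting tried, with log2 changes of -0.57 to -0.44. Nab2 lay between -0.07, with library size alone, and 0.12, without depleted replicate 2. Relative to the median of all genes, Nab2 was at 0.06 with library size alone and 0.07 with TMM, and Nab1 at -0.44 with both. A change of scaling shifts all genes alike, so this match was fixed in advance. With the length trend removed, which does not shift all genes alike, Nab1 was at -0.56 and Nab2 at 0.06 relative to that median.

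**Figure D4:**
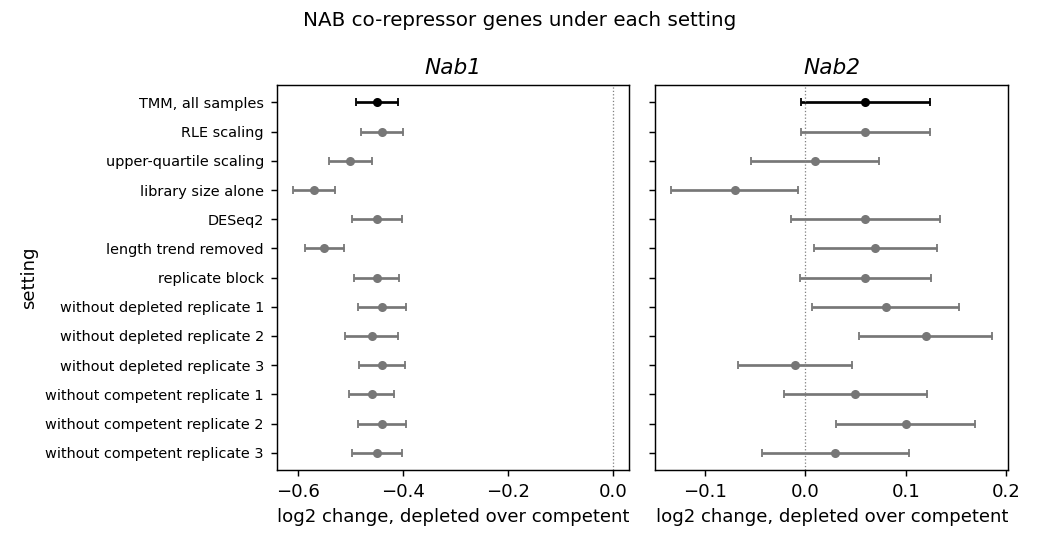
Log2 change, depleted over competent, of Nab1 (left) and Nab2 (right) under the main and other scalings, DESeq2, the length trend removed, the replicate block and with each sample left out, with bars of 1 SE and a dotted line at 0. Nab1 stays between -0.57 and -0.44, and Nab2 lies between -0.07 and 0.12.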

How the data were processed

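The authors deposited raw counts per gene for 6 samples, whole numbers with no normalization. Per the submitters' processing notes, STAR 2.7.1a, featureCounts, cutadapt 1.16, DESeq2 1.34.0, MultiQC 1.3 and FastQC 0.11.9 were used with GRCm38. Their roles, the annotation and the strand setting are not given in the sources used here. Per the labels' protocols, poly-A RNA and a directional kit were used. Columns named KO and WT were read as cilia depleted and competent. Coordinates and exon lengths came from GENCODE M21 (GRCm38), which held 32009 of the identifiers.

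Genes were filtered with filterByExpr, scaled by TMM and compared with edgeR 4.0.16 (R 4.3.3), quasi-likelihood F-test, two-sided, Benjamini-Hochberg over 13839 genes. The code was tested on simulated data. Chi-square per degree of freedom was 5.33 to 9.44 within groups, so no samples were duplicates. DESeq2 1.42.0 was an alternative. The members and lists were chosen with earlier results of these data known. Up to 5 genes per list with the largest change were named, the 2 highest expressed where none passed, and others are said to be named after their values were seen. Rps6ka4 was not analysed here, and a few other list genes are counted but not reported by name.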

Additional observations from a re-analysis of the deposited data

How the results depend on the processing

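The log2 changes of Egr2, Egr3, Egr4 and the counts of all genes called (3836 to 4882 rising, 4115 to 5980 falling) moved by less than the replicate spread, or by less than 1.5 times, under each alternative run: other scalings, DESeq2, other filters, removal of the length trend, the replicate block, leaving out each sample and, for the counts, an adjusted p below 0.01. Egr1 moved to 7.52 with library size alone and 7.50 with the length trend removed. Nab1 moved to -0.50 with upper-quartile scaling, -0.57 with library size alone and -0.55 with the length trend removed. Nab2 changed sign to -0.07 with library size alone and ranged from -0.01 to 0.12 when single samples were left out, below 0 without depleted replicate 3. With library size alone, 11 ERK cascade genes and 1 partner gene fell and 2 NuRD genes rose; with the length trend removed, 2 partner genes fell and 2 NuRD genes rose. The causes were not tested, beyond the shift of the median of all genes to -0.13 with library size alone. Hcfc1 and Ddx20 lost their calls as given above. Same-numbered samples did not deviate together (correlations of -0.00723, 0.0305 and -0.00448), none was most like its own number, and they share only a number. With the replicate block 4828 genes rose and 4698 fell. Depth limits Egr4, Tnf and Lag3, whose competent samples held 1 to 8 counts.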
